A study of Homo sapiens with 6 samples.

Results

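The 37 genes of the human mitochondrial chromosome were followed in MDA-MB-231 cells, a human cell line established from triple-negative breast cancer. They were taken as every gene row whose symbol begins with MT-, and all 37 were found among the 60651 gene rows: 13 mRNAs, 2 rRNAs and 22 tRNAs. The cells carried no engineered change (genotype WT) and received DMSO as the control or AF-EAE at 75 or 150 µg/ml in the medium for 24 h. AF-EAE is an extract made with ethyl acetate from the plant Antenoron filiforme, and the sources used here do not give its contents. Each group had 2 libraries, numbered as biological replicates of 1 cell line grown in DMEM with serum, so p-values measure only how far these libraries spread, which may be technical. The series title asks about proliferation and the SKP2/P21 axis. The mitochondrial chromosome is not named in it.

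The mitochondrial chromosome is read from both strands into long RNAs that carry many genes in a row. The tRNAs stand between most of the other genes, and their excision by RNase P and by ELAC2 releases the rRNAs and mRNAs. The 2 rRNAs build the mitochondrial ribosome and lie nearest to the start of the heavy-strand RNA, whereas MT-ND6 is the only protein gene on the other strand. All 13 proteins are subunits of respiratory chain complexes I, III and IV or of ATP synthase (complex V).

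Counts in genes ran from 15621103 to 17113722 per library, so that 3 counts equal 0.175 to 0.192 CPM, the usual unit of counts relative to the library total. Levels below are CPM scaled by TMM, which sets libraries to a common composition. Differences were tested by edgeR's quasi-likelihood test across 15589 genes, with Benjamini-Hochberg adjustment at 0.05. In bulk RNA, fewer cells of a type and less RNA per cell cannot be told apart. The cell line's genes were present, with VIM at 550 to 854 CPM, CD44 at 674 to 1031 CPM and EGFR at 221 to 357 CPM. All 3 were lower at both doses, with log2 fold changes over DMSO at 75 and 150 µg/ml of -0.34 and -0.59 for VIM, -0.17 and -0.56 for CD44 and -0.55 and -0.62 for EGFR; under total counts 2 of the 3 were lower at 75 µg/ml and 3 at 150 µg/ml. Of the leukocyte genes, PTPRC and CD3E were at 0 in all 6 libraries, and the list summed to 0.196 to 0.428 CPM. The 5 fibroblast genes summed to 6.81 to 10.8 CPM, nearly all from COL1A1, with DCN at 0 in all 6 libraries. The 5 luminal genes summed to 8.16 to 15.8 CPM, mostly GATA3, with PGR, CDH1 and FOXA1 each at or below 0.232 CPM in all 6. ESR1 had 0.126 and 0.131 CPM under DMSO, 0.917 and 0.781 CPM under 75 µg/ml and 0.786 and 0.522 CPM under 150 µg/ml, below the level of 3 counts under DMSO, and was called higher at 75 µg/ml (adjusted p = 0.00563) and 150 µg/ml (adjusted p = 0.0136) by edgeR. DESeq2 called 0 of the luminal list higher at either dose, and limma-voom called 1 higher at each. GATA3 was at -0.30 (SE 0.159, adjusted p = 0.145) and -0.90 (SE 0.167, adjusted p = 2.2e-04) on the log2 scale at 75 and 150 µg/ml. The part of these markers in the results below was not tested.

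Counts from the mitochondrial chromosome made up a smaller share of the library with each dose, while the rRNA part of them grew. The 37 genes held 4.19% and 4.3% under DMSO, 3.69% and 3.76% under 75 µg/ml and 2.68% and 2.94% under 150 µg/ml. The exact binomial 95% interval of the lowest of these, the 150 µg/ml library 1, was 2.67% to 2.69%, and such intervals cover counting error only. The groups did not overlap, and the mean was 4.24% ± 0.0822 in DMSO, 3.72% ± 0.0516 at 75 µg/ml and 2.81% ± 0.184 at 150 µg/ml (SD, n = 2 each). A 2-sided exact permutation test of 2 libraries against 2 gave p = 0.333 for each of the 3 pairs of groups, which is the smallest p this design allows. The same 0.333 holds for every share whose groups are said below not to overlap.

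The 13 mRNAs and the 2 rRNAs moved in opposite directions within that total. Of all gene counts, the mRNAs held 3.92% and 4.0% under DMSO, 3.06% and 3.12% under 75 µg/ml and 1.73% and 1.97% under 150 µg/ml. The rRNAs held 0.261% and 0.30% under DMSO, 0.62% and 0.631% under 75 µg/ml and 0.952% and 0.967% under 150 µg/ml. The mRNA share at 150 µg/ml was 0.467 times that in DMSO, and the rRNA share was 3.42 times that in DMSO. As a part of the mitochondrial counts alone, rRNA was 6.24% and 6.98% under DMSO, 16.8% and 16.8% under 75 µg/ml and 35.5% and 32.9% under 150 µg/ml. This last share does not depend on how libraries are scaled to each other, and the 3 groups were apart in it.

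**Figure D1:**
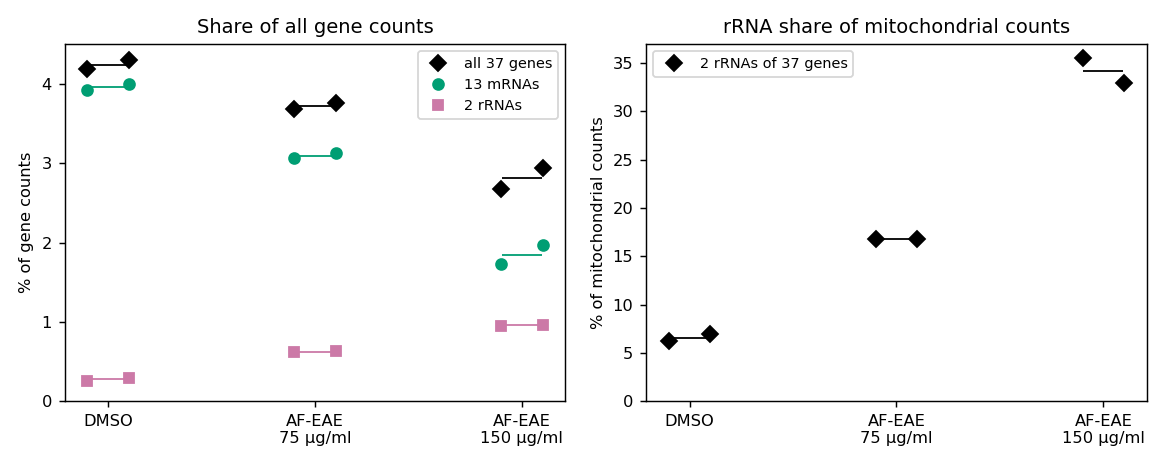
Share of gene counts held by the 37 mitochondrial genes, the 13 mRNAs and the 2 rRNAs (left, % of gene counts) and rRNA as a share of the mitochondrial counts (right, %), in each of the 6 libraries by group; short lines are means of 2 libraries. The total and mRNA shares fall with dose and the rRNA share rises, to 32.9% and 35.5% of mitochondrial counts at 150 µg/ml.

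Both rRNAs were higher at each dose. MT-RNR2, the 16S rRNA of the large ribosomal subunit (chrM:1671-3229, plus strand, GRCh38), had 2340.1 and 2699 CPM under DMSO, 5114 and 5229.5 CPM under 75 µg/ml and 7533 and 7637 CPM under 150 µg/ml. The libraries of the 3 groups did not overlap, and the level was higher at the higher dose. Its log2 fold change was 1.04 at 75 µg/ml (SE 0.052, adjusted p = 1.2e-10) and 1.59 at 150 µg/ml (SE 0.0526, adjusted p = 1.5e-13) over DMSO by edgeR's quasi-likelihood test, or 3.01-fold at the higher dose. MT-RNR1, the 12S rRNA of the small subunit (chrM:648-1601, plus strand), had 477 and 526 CPM under DMSO, 1004 and 987 CPM under 75 µg/ml and 1452 and 1527 CPM under 150 µg/ml. It rose by a similar amount, 0.99 (SE 0.0494, adjusted p = 1.1e-10) and 1.57 (SE 0.0498, adjusted p = 9.3e-14) on the log2 scale. The log2 ratio of MT-RNR2 to MT-RNR1 counts stayed between 2.29 and 2.41 in the 6 libraries.

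The kit was NEBNext Ultra RNA, on total RNA per the labels, and the sources used here do not give how RNA was selected. Most of 8 RNAs listed as examples without a poly(A) tail were barely counted. RN7SL2, RN7SK, RMRP, RPPH1 and SCARNA2 were at 0 in all 6 libraries, and VTRNA1-1 was at 0 in 5 of them. Such zeros alone do not tell how RNA was selected, because the protein-coding genes NDUFA6 and VARS2 were also at 0 in all 6. RN7SL1, the RNA of the signal recognition particle, had 12.6 and 38.2 CPM under DMSO, 15.5 and 33 CPM under 75 µg/ml and 9.25 and 30.7 CPM under 150 µg/ml, so that library 2 was above library 1 in every group. Its log2 fold change over DMSO was -0.06 (SE 0.432, adjusted p = 0.931) at 75 µg/ml and -0.34 (SE 0.439, adjusted p = 0.551) at 150 µg/ml by edgeR. SNORD3A, the U3 small nucleolar RNA, stayed between 0.367 and 0.987 CPM and was at 0.60 (SE 0.623, adjusted p = 0.486) and 0.92 (SE 0.60, adjusted p = 0.215). MT-RNR2 was also above in library 2 of each group, by less than the distance between its groups, and the part of this difference in the result was not tested.

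At 75 µg/ml, 10 of the 13 mRNAs fell, MT-ND1 and MT-ND2 rose, and MT-ATP8 did not pass the test. With the 2 rRNAs and the tRNA row MT-TP, 5 of 16 tested mitochondrial genes were higher and 10 were lower; over all genes tested, 38.6% passed, 19.2% higher and 19.4% lower. At 150 µg/ml, 12 of the 13 mRNAs fell and MT-ATP8 again did not pass, so that 2 of the 16 were higher and 12 lower; over all genes tested, 51.5% passed, 25.8% higher and 25.7% lower. The other 21 mitochondrial rows, all of them tRNAs, did not pass the filter on low counts. The median log2 fold change of the 13 mRNAs was -0.52 at 75 µg/ml and -1.40 at 150 µg/ml, beside 0.01 and 0.03 for all genes tested. Under scaling by total counts the median of all genes was 0.14 and 0.22, so directions are relative to the scaling. The called genes were then 71.2% higher at 75 µg/ml and 70.3% higher at 150 µg/ml, against 49.7% and 50.1% with TMM.

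**Figure D2:**
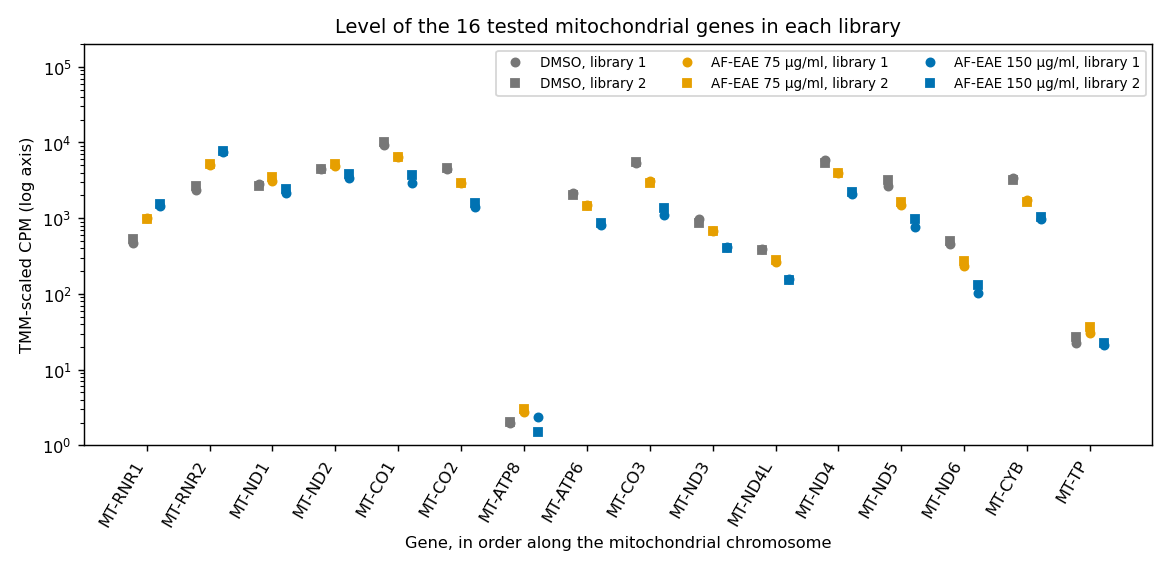
TMM-scaled CPM (log axis) of the 16 tested mitochondrial genes in order along the chromosome, for each of the 6 libraries (colour: group, circle: library 1, square: library 2). The rRNAs at the left rise with dose, MT-ND1 and MT-ND2 are highest at 75 µg/ml, and the other mRNAs apart from MT-ATP8 fall with dose.

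The 3 core subunits of complex IV, the cytochrome c oxidase that passes electrons to oxygen, all fell at both doses. MT-CO3 (chrM:9207-9990, plus strand) had 5429.5 and 5607 CPM under DMSO, 3077 and 2938 CPM under 75 µg/ml and 1088 and 1356 CPM under 150 µg/ml. No group overlapped another. It fell by 0.88 at 75 µg/ml (SE 0.0679, adjusted p = 2.6e-08) and by 2.17 at 150 µg/ml (SE 0.0705, adjusted p = 1.2e-13) on the log2 scale by edgeR, and at 150 µg/ml this 4.51-fold lower level was the largest fall of the 16 tested genes. MT-CO1 (chrM:5904-7445, plus strand), the subunit with the oxygen-binding site and the most counted mRNA in DMSO, had 9212 and 10086 CPM under DMSO, 6404 and 6340.3 CPM under 75 µg/ml and 2903 and 3695 CPM under 150 µg/ml. Both 150 µg/ml libraries lay below every other library, and the groups did not overlap. MT-CO2 (chrM:7586-8269, plus strand), which receives electrons from cytochrome c, had 4509.6 and 4621 CPM under DMSO, 2901 and 2886 CPM under 75 µg/ml and 1401 and 1578 CPM under 150 µg/ml. The log2 fold changes at 75 and 150 µg/ml were -0.60 (SE 0.0737) and -1.55 (SE 0.0752) for MT-CO1, with adjusted p = 5.5e-06 and 2.1e-11 by edgeR. For MT-CO2 they were -0.66 (SE 0.0484) and -1.62 (SE 0.0495), with adjusted p = 1.4e-08 and 7.1e-14.

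MT-CYB (chrM:14747-15887, plus strand), cytochrome b of complex III and the last mRNA gene of the plus strand, had 3384 and 3159.7 CPM under DMSO, 1748 and 1624 CPM under 75 µg/ml and 972 and 1033 CPM under 150 µg/ml. It was lower in all 4 treated libraries than in both DMSO libraries. Its log2 fold change was -0.96 at 75 µg/ml (SE 0.0488, adjusted p = 1.4e-10), the lowest of the 16 at that dose with MT-ND5 and MT-ND6 less than 1 SE away, and -1.71 at 150 µg/ml (SE 0.0499, adjusted p = 4.3e-14) by edgeR.

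The 7 subunits of complex I, the NADH dehydrogenase, did not move as one. MT-ND1 (chrM:3307-4262, plus strand), the first mRNA gene after the rRNAs, had 2796 and 2651 CPM under DMSO, 3116 and 3475 CPM under 75 µg/ml and 2175 and 2443 CPM under 150 µg/ml. Both 75 µg/ml libraries lay above the DMSO libraries and both 150 µg/ml libraries below them. MT-ND2 (chrM:4470-5511, plus strand), the next mRNA gene, had 4428 and 4449 CPM under DMSO, 4865 and 5275 CPM under 75 µg/ml and 3415 and 3836 CPM under 150 µg/ml, with the same order of groups. Over DMSO, MT-ND1 was at 0.28 (SE 0.0565, adjusted p = 8.7e-04) at 75 µg/ml and -0.24 (SE 0.0565, adjusted p = 0.00187) at 150 µg/ml on the log2 scale by edgeR. MT-ND2 was at 0.19 (SE 0.0511, adjusted p = 0.00637) and -0.29 (SE 0.0512, adjusted p = 1.2e-04).

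These are the smallest changes among the called mitochondrial genes, and 3 of these 4 calls depended on a choice. Under total counts the falls at 150 µg/ml no longer passed edgeR's test, with -0.05 (adjusted p = 0.456) for MT-ND1 and -0.10 (adjusted p = 0.0857) for MT-ND2. Over all 16 alternatives at that dose the adjusted p ran from 5.36e-11 to 0.456 and from 1.03e-17 to 0.0857. Without the 75 µg/ml library 2 the rise of MT-ND2 was 0.13 with an adjusted p of 0.1, within a range of 1.14e-06 to 0.1 over its 16 alternatives. The rise of MT-ND1 at 75 µg/ml passed in all 16, with an adjusted p of up to 0.0279.

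Farther along the plus strand the complex I genes were lower at both doses. MT-ND3 (chrM:10059-10404) had 978 and 860.3 CPM under DMSO, 668 and 671 CPM under 75 µg/ml and 419.9 and 403 CPM under 150 µg/ml. MT-ND4L (chrM:10470-10766) had 389.8 and 380.1 CPM under DMSO, 264 and 279.8 CPM under 75 µg/ml and 156 and 154 CPM under 150 µg/ml, and MT-ND4 (chrM:10760-12137), which shares an mRNA with it, had 5880.2 and 5401 CPM under DMSO, 3985 and 3960.2 CPM under 75 µg/ml and 2088 and 2189 CPM under 150 µg/ml. Each of these 3 genes had its groups apart and in order of dose. How many of all genes tested had their groups apart was not counted, for these or for the other genes named. The log2 fold changes at 75 µg/ml were -0.46 for MT-ND3 (SE 0.0533, adjusted p = 2.9e-06), -0.50 for MT-ND4L (SE 0.0476, adjusted p = 2.7e-07) and -0.51 for MT-ND4 (SE 0.0445, adjusted p = 1.1e-07) by edgeR. At 150 µg/ml they were -1.16 (SE 0.0543), -1.31 (SE 0.0491) and -1.40 (SE 0.0453). The log2 ratio of MT-ND4 to MT-ND4L counts lay between 3.74 and 3.92 in the 6 libraries.

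MT-ND5 (chrM:12337-14148, plus strand), the longest of the 13, had 2684 and 3243 CPM under DMSO, 1497 and 1627 CPM under 75 µg/ml and 774 and 977 CPM under 150 µg/ml. MT-ND6 (chrM:14149-14673), its neighbour on the minus strand, had 451 and 497 CPM under DMSO, 233 and 268 CPM under 75 µg/ml and 104 and 130.4 CPM under 150 µg/ml. In both genes library 2 was above library 1 in each group, by less than the distance between groups. MT-ND5 fell by 0.92 at 75 µg/ml (SE 0.0869, adjusted p = 2.5e-07) and by 1.76 at 150 µg/ml (SE 0.089, adjusted p = 3.6e-11) by edgeR. MT-ND6 likewise fell by 0.92 at 75 µg/ml (SE 0.080, adjusted p = 1.0e-07) and by 2.01 at 150 µg/ml (SE 0.0844, adjusted p = 3.2e-12). The sources used here do not give whether the libraries keep the strand, so reads of MT-ND6 and of the opposite strand's RNA at that place cannot be told apart.

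MT-ATP6 and MT-ATP8, the subunits of complex V, come from 1 mRNA in which their reading frames overlap. MT-ATP6 (chrM:8527-9207, plus strand), part of the proton channel, had 2169 and 2013 CPM under DMSO, 1479 and 1446 CPM under 75 µg/ml and 808 and 871 CPM under 150 µg/ml. It was lower in all 4 treated libraries and lowest at 150 µg/ml, with log2 fold changes of -0.52 (SE 0.0476, adjusted p = 2.0e-07) and -1.32 (SE 0.0485, adjusted p = 5.9e-13) by edgeR. MT-ATP8 (chrM:8366-8572, plus strand) had only 31 and 31 counts under DMSO, 45 and 50 counts under 75 µg/ml and 39 and 26 counts under 150 µg/ml. Its log2 fold changes of 0.53 (SE 0.315, adjusted p = 0.201) and -0.05 (SE 0.328, adjusted p = 0.922) did not pass, and the second turned to 0.14 under total counts.

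The few counts of MT-ATP8 stand beside its place on the chromosome. Of its 207 bases, 46 are also bases of MT-ATP6, and 1 base lies between it and MT-TK, the lysine tRNA gene. HTSeq's summary row for reads that touch more than 1 gene held 10.95% to 11.48% of all reads in the tables, without naming genes. MT-ND4L, 297 bases long with 7 of them shared, had 2582 to 6184 counts per library. The part of position and of such reads in the low counts of MT-ATP8 was not tested. The stretch where the 2 frames overlap is shown because reads across it belong to both genes. It runs from chrM:8507-8592 on the plus strand, from the GENCODE 29 transcripts on GRCh38, with the 46 shared bases in capitals and 20 bases of each gene alone on either side.
MT-ATP8/MT-ATP6: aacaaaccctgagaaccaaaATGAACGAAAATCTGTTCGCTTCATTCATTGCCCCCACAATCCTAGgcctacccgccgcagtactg
MT-ND4L and MT-ND4 overlap in the same way by 7 bases, in capitals below (chrM:10740-10786, plus strand).
MT-ND4L/MT-ND4: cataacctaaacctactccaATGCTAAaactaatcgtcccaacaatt

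Between the doses, 150 against 75 µg/ml, the rRNAs rose again and all mRNAs with a call fell. Of the 16 tested genes, 2 were higher, 13 lower and MT-ATP8 was not past the test; over all genes tested, 22% passed, 9.51% higher and 12.5% lower (62.1% of the called genes were higher under total counts, against 43.2% with TMM). This comparison shares its libraries with the other 2, so it is not separate evidence. MT-RNR1 was at 0.58 (SE 0.0484, adjusted p = 3.0e-07) and MT-RNR2 at 0.55 (SE 0.0514, adjusted p = 9.0e-07) by edgeR. The mRNAs that passed ran from -1.30 for MT-CO3 (SE 0.0689, adjusted p = 2.3e-09) to -0.48 for MT-ND2 (SE 0.0512, adjusted p = 3.6e-06). Next to MT-CO3 were MT-ND6 at -1.09, MT-CO2 at -0.96 and MT-CO1 at -0.95. MT-ND4, MT-ND5, MT-ND4L, MT-ATP6, MT-CYB and MT-ND3 lay between -0.89 and -0.70, and MT-ND1 was at -0.51.

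**Figure D3:**
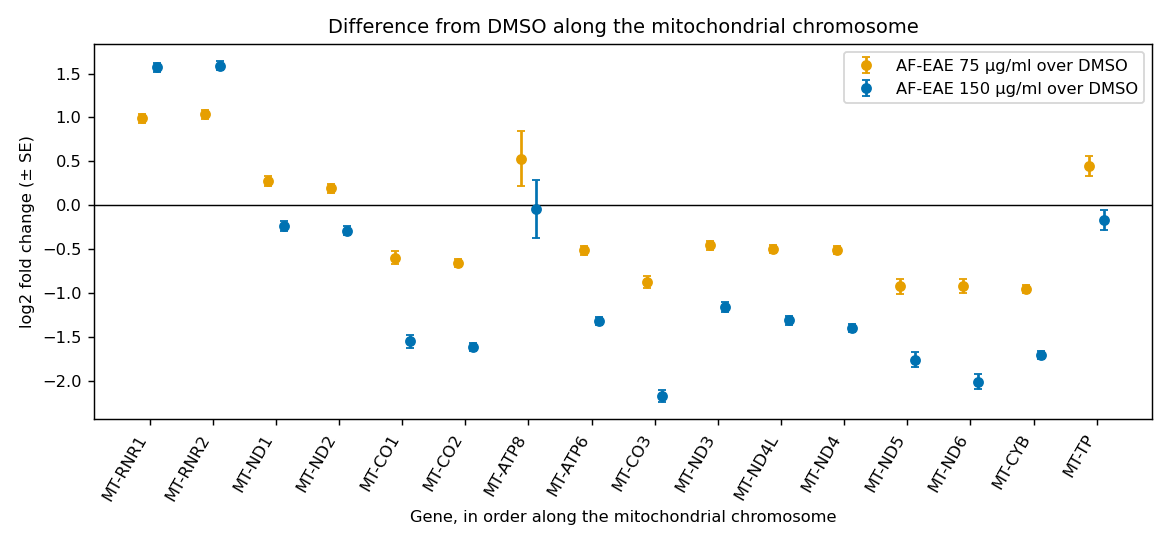
Log2 fold change over DMSO (± SE, n = 2 libraries per group) of the 16 tested genes in order along the chromosome, at 75 and 150 µg/ml. Both rRNAs are above 0 at both doses, MT-ND1 and MT-ND2 lie close to 0, and the mRNAs from MT-CO1 onward lie below 0 except MT-ATP8, whose error bars are wide.

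Read in order along the plus strand from the rRNAs to MT-CO1, the fold changes stepped down mainly at 2 places. The step from MT-RNR2 to MT-ND1 was seen within each library: the log2 ratio of their counts was -0.26 and 0.03 under DMSO, 0.71 and 0.59 under 75 µg/ml and 1.79 and 1.64 under 150 µg/ml. The ratio of MT-ND1 to MT-CO1 moved as well, with -1.72 and -1.93 under DMSO, -1.04 and -0.87 under 75 µg/ml and -0.42 and -0.60 under 150 µg/ml. Within the pairs MT-RNR1 with MT-RNR2 and MT-ND1 with MT-ND2 the changes differed less. The log2 ratio of MT-ND2 to MT-ND1 counts was 0.66 and 0.75 under DMSO, 0.64 and 0.60 under 75 µg/ml and 0.65 and 0.65 under 150 µg/ml, within 0.60 to 0.75 in all 6.

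After MT-CO1 the order along the chromosome no longer matched the size of the fall. MT-CO3 fell more than its neighbours MT-ATP6 and MT-ND3, and MT-ND3, MT-ND4L and MT-ND4 fell less than MT-CO1 at 75 and at 150 µg/ml. At 75 µg/ml they were close to MT-CO1, at -0.46, -0.50 and -0.51 beside -0.60 (SE 0.0737). The log2 ratio of MT-CO3 to MT-ATP6 counts was 1.32 and 1.48 under DMSO, 1.06 and 1.02 under 75 µg/ml and 0.43 and 0.64 under 150 µg/ml, apart in the 3 groups. That of MT-CYB to MT-ND4 was -0.80 and -0.77 under DMSO, -1.19 and -1.29 under 75 µg/ml and -1.10 and -1.08 under 150 µg/ml, lower in the treated libraries than in DMSO. Over the 11 plus-strand mRNAs other than MT-ATP8, start position and log2 fold change had a Spearman's rho of -0.591 at 75 µg/ml, -0.536 at 150 µg/ml and -0.191 between the doses. Pearson's r was -0.807, -0.676 and -0.32. These genes share the same 6 libraries and RNAs that carry several of them, so the coefficients are a description.

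The make-up of the mRNA counts changed accordingly. Of the counts of the 13 mRNAs, MT-ND1 held 6.61% and 6.17% under DMSO, 10.3% and 11.3% under 75 µg/ml and 13.3% and 13.1% under 150 µg/ml. MT-ND2 held 10.5% and 10.4% under DMSO, 16.1% and 17.1% under 75 µg/ml and 20.9% and 20.6% under 150 µg/ml. Both shares were apart in the 3 groups, and at 150 µg/ml MT-ND2 held more than MT-CO1 in each library. MT-CO3 went the other way, with 12.8% and 13% under DMSO, 10.2% and 9.54% under 75 µg/ml and 6.67% and 7.27% under 150 µg/ml. MT-CO1 held 21.8% and 23.5% under DMSO, 21.2% and 20.6% under 75 µg/ml and 17.8% and 19.8% under 150 µg/ml, lower in each treated library than in either DMSO library. MT-ND6 held 1.07% and 1.16% under DMSO, 0.77% and 0.871% under 75 µg/ml and 0.639% and 0.699% under 150 µg/ml. MT-CO2 held 10.7% and 10.8% under DMSO, 9.59% and 9.37% under 75 µg/ml and 8.59% and 8.45% under 150 µg/ml, and its 3 groups were apart. MT-CYB held 8.0% and 7.35% under DMSO, 5.78% and 5.27% under 75 µg/ml and 5.96% and 5.53% under 150 µg/ml. MT-ND5 held 6.34% and 7.55% under DMSO, 4.95% and 5.28% under 75 µg/ml and 4.74% and 5.23% under 150 µg/ml. For both of these the treated libraries were below DMSO and the 2 doses overlapped. The shares of MT-ATP6 overlapped between the groups at 4.66% to 5.13%, those of MT-ND3 at 2.0% to 2.57% and those of MT-ND4L at 0.825% to 0.957%. MT-ND4 held 11.7% to 13.9%, with each dose overlapping DMSO and the 2 doses apart.

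**Figure D4:**
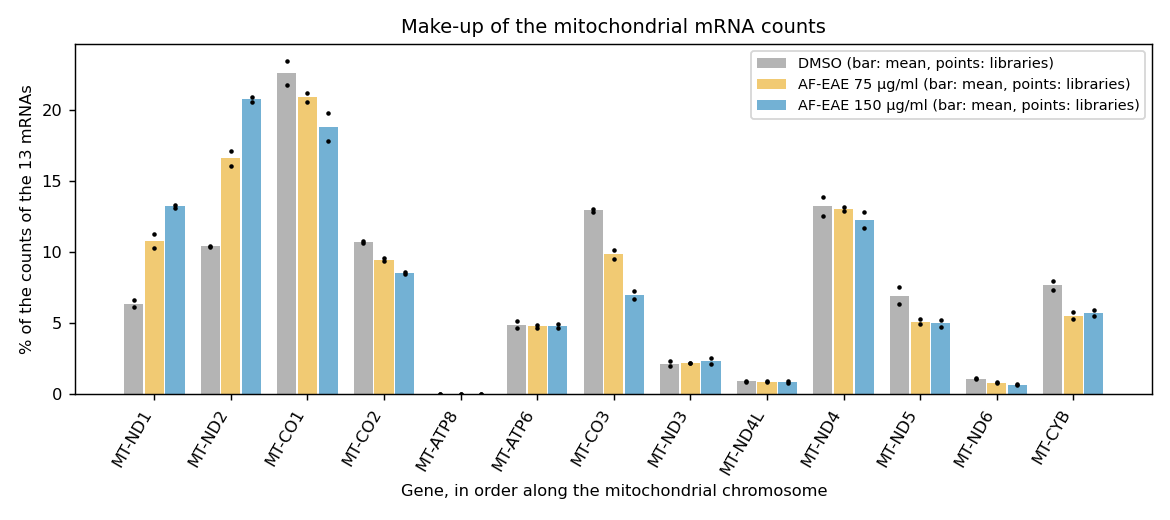
Share of the counts of the 13 mitochondrial mRNAs held by each gene (%, bars are means of 2 libraries and points are libraries), in order along the chromosome. MT-ND1 and MT-ND2 take larger shares with dose and MT-CO3 a smaller one. MT-ATP6, MT-ND3 and MT-ND4L have overlapping shares, and MT-ND4 overlaps DMSO at both doses.

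Levels per kilobase of gene changed their order. In DMSO the highest mean levels per kilobase were 7039 CPM for MT-CO3, 6674 CPM for MT-CO2 and 6257 CPM for MT-CO1, followed by MT-ND2 at 4259 CPM and MT-ND4 at 4093 CPM. MT-RNR2 then stood at 1616 CPM and MT-RNR1 at 526 CPM per kilobase. At 75 µg/ml MT-ND2 led with 4866 CPM, before MT-CO2 with 4229.9 CPM and MT-CO1 with 4133 CPM per kilobase. At 150 µg/ml MT-RNR2 led with 4865 CPM, before MT-ND2 with 3479.7 CPM and MT-ND1 with 2416 CPM per kilobase. MT-CO3 was then at 1559 CPM and MT-ND6, on the minus strand, at 224 CPM per kilobase. MT-ATP8 stayed at 9.34 to 13.9 CPM per kilobase in the means of the 3 groups.

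The tRNA rows were nearly empty. Of 22 tRNA genes, 20 had 0 counts in all 6 libraries, which allows up to 0.192 CPM for the row in a library by counting alone. The remaining 2, MT-TF and MT-TP, are the tRNA genes at either edge of the control region, the stretch without genes from which transcription starts. MT-TF, the phenylalanine tRNA, had 0 and 3 counts under DMSO, 0 and 0 counts under 75 µg/ml and 0 and 2 counts under 150 µg/ml. MT-TP, the proline tRNA, held 2612 of the 2617 tRNA counts in all libraries. As a share of gene counts, all tRNA rows together made up 0.00207% to 0.00369%.

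The empty rows share their surroundings. Mitochondrial tRNA genes are 59 to 75 bases long, 14 on the plus and 8 on the minus strand. Each of the 20 rows at 0 lies within 31 bases of another gene on both sides, whereas MT-TP and MT-TF each have the control region, and no adjoining gene, on one side. A read longer than such a gene also touches its neighbours. The sources used here give neither the read length nor the counting options, and the part of this in the zeros was not tested. The rows therefore say nothing on the amounts of mature tRNAs.

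MT-TP was the one tRNA row that could be tested. It had 355 and 410 counts under DMSO, 503 and 606 counts under 75 µg/ml and 351 and 387 counts under 150 µg/ml, or 22.4 and 26.8 CPM under DMSO, 30.7 and 36.4 CPM under 75 µg/ml and 21.2 and 22.5 CPM under 150 µg/ml. Its row was highest in the 75 µg/ml libraries, while the 150 µg/ml and DMSO libraries overlapped. Library 2 was above library 1 in each group, in DMSO by more than the distance to the nearest 75 µg/ml library. The log2 fold change was 0.45 at 75 µg/ml (SE 0.112, adjusted p = 0.00402), -0.17 at 150 µg/ml (SE 0.116, adjusted p = 0.235) and -0.62 between the doses (SE 0.112, adjusted p = 7.2e-04) by edgeR. The rise at 75 µg/ml did not pass without the DMSO library 1 (0.32, adjusted p = 0.0637) or without the 75 µg/ml library 2 (0.32, adjusted p = 0.0769), in a range of 0.000375 to 0.0769 over 16 alternatives. MT-TP lies on the minus strand, and its reads and those of the plus-strand RNA at that place cannot be told apart here.

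The 2 tRNA genes with counts are shown in full, 5′ to 3′ on their own strands, from the GENCODE 29 transcripts, which held all 37 genes. MT-TP is at chrM:15956-16023 (minus strand) and MT-TF at chrM:577-647 (plus strand).
MT-TP: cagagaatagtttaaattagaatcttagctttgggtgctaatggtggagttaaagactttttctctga
MT-TF: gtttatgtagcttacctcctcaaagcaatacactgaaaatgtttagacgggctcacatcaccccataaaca
Of the tRNA genes with no counts, those that stand between the rRNAs, after MT-RNR2 and between MT-CO3 and MT-ND3 are shown, because the genes on either side had many counts. Capitals mark the tRNA gene, and lower case marks 20 bases of the neighbouring genes, with no base between. The stretches are chrM:1582-1690, chrM:3210-3304 and chrM:9971-10078 on the plus strand.
MT-RNR1/MT-TV/MT-RNR2: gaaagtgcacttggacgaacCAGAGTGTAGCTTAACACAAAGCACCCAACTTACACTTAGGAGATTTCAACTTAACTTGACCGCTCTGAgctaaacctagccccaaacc
MT-RNR2/MT-TL1: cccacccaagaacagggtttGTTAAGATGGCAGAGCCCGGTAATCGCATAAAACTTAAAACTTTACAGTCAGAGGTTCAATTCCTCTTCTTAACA
MT-CO3/MT-TG/MT-ND3: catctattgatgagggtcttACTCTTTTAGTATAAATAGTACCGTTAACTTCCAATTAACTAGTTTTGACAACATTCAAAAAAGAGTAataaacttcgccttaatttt
MT-TV, the valine tRNA, separates rRNA rows that rose together. MT-TL1, a leucine tRNA whose gene holds the binding site of the terminator protein MTERF1, follows MT-RNR2 and precedes MT-ND1 by 2 bases, at the step from the rRNAs to MT-ND1. Any part of this site in that step was not tested. MT-TG, the glycine tRNA, stands between MT-CO3 and MT-ND3, whose falls at 150 µg/ml were -2.17 and -1.16 on the log2 scale.

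Nuclear copies of mitochondrial genes can share reads with the chromosome itself. By name, 404 rows were such copies, and 66 of them had a count. Of the 7 rows listed for a copied segment on chromosome 1, MTND2P28, MTATP6P1 and MTCO1P12 held nearly all counts of this kind. The 7 summed to 538 and 463 CPM under DMSO, 477 and 446 CPM under 75 µg/ml and 272 and 270.0 CPM under 150 µg/ml. MTATP6P1 had 287 and 235 CPM under DMSO, 201 and 179.7 CPM under 75 µg/ml and 113 and 105 CPM under 150 µg/ml, and per library its counts were 11.7% to 14% of those of MT-ATP6. MTND2P28 had 219 and 194 CPM under DMSO, 248 and 243 CPM under 75 µg/ml and 144 and 152 CPM under 150 µg/ml, 3.95% to 5.1% of MT-ND2, and MTCO1P12 had 31.7 and 33.2 CPM under DMSO, 27 and 23.7 CPM under 75 µg/ml and 14.1 and 13.3 CPM under 150 µg/ml, 0.33% to 0.487% of MT-CO1.

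These rows moved as the genes they resemble did. Over DMSO, MTATP6P1 was at -0.45 (SE 0.076, adjusted p = 1.4e-04) and -1.26 (SE 0.0789, adjusted p = 5.3e-10) at 75 and 150 µg/ml by edgeR, and MTCO1P12 at -0.36 (SE 0.102, adjusted p = 0.00974) and -1.24 (SE 0.108, adjusted p = 3.8e-08). MTND2P28 was at 0.25 (SE 0.057, adjusted p = 0.00206) and -0.48 (SE 0.0584, adjusted p = 2.3e-06), higher at 75 and lower at 150 µg/ml like MT-ND2. HTSeq's row for reads aligned to several places was 0, and the sources used here do not say what was done with them. Reads of the copies and of MT-ND2, MT-ATP6 and MT-CO1 cannot be told apart with certainty. The other 4 rows of the segment had 0 to 7 counts in a library.

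Nuclear genes that serve the mitochondrial chromosome had medians nearer to 0 than its own mRNAs. The counts of each list stand beside 19.2% higher and 19.4% lower of all genes tested at 75 µg/ml, and beside 25.8% higher and 25.7% lower at 150 µg/ml. Among 17 genes of its transcription and replication, 1 rose and 4 fell at 75 µg/ml and 0 rose and 6 fell at 150 µg/ml (medians -0.06 and -0.09). TFAM, which packages the DNA and starts transcription, had 190.2 and 189 CPM under DMSO, 149.6 and 144 CPM under 75 µg/ml and 138 and 133 CPM under 150 µg/ml. It fell at both doses, with -0.37 (SE 0.0509, adjusted p = 2.0e-05) and -0.48 (SE 0.0511, adjusted p = 4.4e-07) on the log2 scale by edgeR. TWNK, the DNA helicase, was at -0.49 (SE 0.0794, adjusted p = 9.8e-05) at 75 µg/ml, and POLG, the DNA polymerase, at -0.29 (SE 0.0515, adjusted p = 1.6e-04) at 150 µg/ml. Under total counts 3 rose and 2 fell at 75 µg/ml and 4 rose and 1 fell at 150 µg/ml. That scaling put 4494 of all 15589 genes higher and 1819 lower at 75 µg/ml, and 6021 higher and 2544 lower at 150 µg/ml. These counts of all genes also stand beside the total-count calls of the lists below. The list median was then 0.06 beside 0.14 for all genes at 75 µg/ml, and 0.10 beside 0.22 at 150 µg/ml. Its sign is thus relative to the scaling, while it lay below that of all genes under both scalings. At an unadjusted p under 0.05, edgeR put 1 of the list higher at 150 µg/ml, and DESeq2 and limma-voom called 0 higher there. POLRMT, the RNA polymerase, and MTERF1, chosen after their values were seen, were at 0.18 (adjusted p = 0.06) and 0.11 (adjusted p = 0.499) at 150 µg/ml by edgeR.

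In the list of RNA processing and stability, 2 of 24 rose and 12 fell at 75 µg/ml, and 4 rose and 15 fell at 150 µg/ml (medians -0.23 and -0.29), the falls above the share of all genes at each dose. Under total counts these were 4 higher and 6 lower, and 5 higher and 9 lower. ELAC2, which cuts tRNAs out at their 3′ end, had 223 and 208 CPM under DMSO, 163 and 163 CPM under 75 µg/ml and 144 and 141 CPM under 150 µg/ml. It was at -0.40 (SE 0.0518, adjusted p = 8.3e-06) and -0.60 (SE 0.0522, adjusted p = 4.0e-08) on the log2 scale at 75 and 150 µg/ml by edgeR. LRPPRC, which binds and steadies mitochondrial mRNAs, had 445 and 428 CPM under DMSO, 367 and 373 CPM under 75 µg/ml and 318 and 331 CPM under 150 µg/ml, and was at -0.43 (SE 0.046, adjusted p = 5.0e-07) at 150 µg/ml. PTCD3, a protein of the mitochondrial ribosome, was at -0.33 (SE 0.0572, adjusted p = 2.0e-04) at 75 µg/ml. Of 20 tested modifiers of tRNA and rRNA, 1 rose and 6 fell at 75 µg/ml and 2 rose and 7 fell at 150 µg/ml (1 and 3, then 4 and 5, under total counts). The cytosine methyltransferase NSUN2 was at -0.51 and -0.60. The pseudouridine synthase PUS1 was at -0.55 at 75 µg/ml and the tRNA thiolase TRMU at -0.62 at 150 µg/ml.

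Aminoacyl-tRNA synthetases of mitochondria went both ways. Of 18 tested, 4 rose and 6 fell at 75 µg/ml and 4 rose and 10 fell at 150 µg/ml (medians -0.14 and -0.35). GARS1, the glycine enzyme of both cytosol and mitochondria, had 254 and 271 CPM under DMSO, 424 and 409 CPM under 75 µg/ml and 566 and 565 CPM under 150 µg/ml, a rise of 0.67 (SE 0.0474, adjusted p = 8.8e-09) and 1.11 (SE 0.0473, adjusted p = 4.0e-12) on the log2 scale by edgeR. CARS2, the cysteine enzyme, was at -0.46 (SE 0.0636, adjusted p = 2.0e-05) at 75 µg/ml and IARS2, the isoleucine enzyme, at -0.52 (SE 0.0513, adjusted p = 1.8e-07) at 150 µg/ml.

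Nuclear subunits of the same complexes had smaller median falls than the mitochondrial mRNAs. Of 34 tested complex I subunits, 1 rose and 2 fell at 75 µg/ml and 1 rose and 16 fell at 150 µg/ml (median -0.22). The accessory subunit NDUFA13 was at 0.67 (SE 0.227, adjusted p = 0.0262) and NDUFS6 at -0.24 (SE 0.0838, adjusted p = 0.0337) at 75 µg/ml, and NDUFA10 at -0.40 (SE 0.0694, adjusted p = 1.0e-04) and NDUFB4 at -0.39 (SE 0.0688, adjusted p = 1.2e-04) at 150 µg/ml by edgeR. NDUFA13 had only 48 and 43 counts under DMSO and 76 and 78 counts under 75 µg/ml. At 75 µg/ml DESeq2 called 0 of the complex I list either way, and limma-voom called 1 higher and 2 lower. In complex III, 4 of 9 fell at each dose and none rose (medians -0.17 and -0.29), nor did any at an unadjusted p under 0.05 by edgeR or by DESeq2 or limma-voom. UQCRFS1, the iron-sulphur subunit, was at -0.45 (SE 0.0558, adjusted p = 5.9e-06) and -0.77 (SE 0.0567, adjusted p = 4.2e-09), the core subunit UQCRC2 at -0.21 at 75 µg/ml and cytochrome c1 (CYC1) at -0.55 at 150 µg/ml.

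In complex IV, whose mitochondrial subunits fell by 1.55 to 2.17 at 150 µg/ml, 1 of 11 nuclear subunits rose and 0 fell at 75 µg/ml, and 1 rose and 4 fell at 150 µg/ml, with falls below the share of all genes at 75 µg/ml (median -0.05 at 150 µg/ml). At an unadjusted p under 0.05, edgeR put 3 of the 11 higher and 3 lower at 75 µg/ml, where DESeq2 called 0 either way and limma-voom 1 higher. NDUFA4 was at 0.19 (SE 0.0703, adjusted p = 0.0423) and COX8A at 0.41 (SE 0.17, adjusted p = 0.0658) at 75 µg/ml, and COX7B at -0.32 (SE 0.0885, adjusted p = 0.00577) and COX5A at -0.25 (SE 0.0686, adjusted p = 0.00616) at 150 µg/ml by edgeR. In complex V, 1 of 16 rose and 8 fell at 75 µg/ml and 0 rose and 13 fell at 150 µg/ml, the falls above the share of all genes at each dose (median -0.42). ATP5MC1, a subunit of the membrane ring, had 104 and 99.6 CPM under DMSO, 70.2 and 71.2 CPM under 75 µg/ml and 46.5 and 48.4 CPM under 150 µg/ml and reached -1.10 (SE 0.0652, adjusted p = 2.6e-10). ATP5F1A, the alpha subunit, had 732 and 714 CPM under DMSO, 565 and 557 CPM under 75 µg/ml and 438 and 446 CPM under 150 µg/ml and reached -0.71 (SE 0.0428, adjusted p = 3.3e-10). Complex II has no mitochondrial subunit. None of its 4 genes passed at 75 µg/ml, where SDHA was at -0.37 (SE 0.285, adjusted p = 0.34) and SDHB at -0.06 (SE 0.0663, adjusted p = 0.534), while 3 fell at 150 µg/ml, among them SDHB at -0.27 (SE 0.0669, adjusted p = 0.0028) and SDHD at -0.18 (SE 0.0666, adjusted p = 0.0281) by edgeR. At 75 µg/ml 0 of the 4 also had an unadjusted p under 0.05, and DESeq2 and limma-voom called 0.

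Under total counts the calls of these subunits shifted. At 150 µg/ml complex I then had 3 higher and 4 lower, complex III 1 and 3, complex IV 3 and 0, complex V 1 and 9 and complex II 0 and 0. At 75 µg/ml they were 4 and 0, 0 and 1, 4 and 0, 1 and 6 and 1 and 0. Over all 15589 genes tested, this scaling gave 6021 higher and 2544 lower at 150 µg/ml and 4494 higher and 1819 lower at 75 µg/ml. The mitochondrial mRNAs other than MT-ND1, MT-ND2 and MT-ATP8 fell under both scalings at both doses. The synthetases had 4 higher and 3 lower at 75 µg/ml and 6 higher and 7 lower at 150 µg/ml.

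Between the doses, the counts of these lists stand beside 9.51% higher and 12.5% lower of all genes tested. Of 15589 genes, DESeq2 called 980 higher and 1584 lower there, and limma-voom 1534 and 1943. In transcription and replication 1 of 17 fell, TOP1MT, a topoisomerase, at -0.27 (SE 0.0853, adjusted p = 0.0289), and SSBP1, which binds single-stranded DNA, was at 0.39 (SE 0.141, adjusted p = 0.0546) by edgeR. In RNA processing 5 of 24 fell, led by LRPPRC at -0.19 and the RNA-binding protein GRSF1 at -0.23. Among modifiers 1 rose and 2 fell, the queuine transferase QTRT1 at -0.37 and TRMU at -0.26. Among synthetases 3 rose and 4 fell, with GARS1 at 0.44 and IARS2 at -0.30. In complex I 10 of 34 fell, with NDUFB10 at -0.42 and NDUFB4 at -0.26. In complex III 3 of 9 fell, with UQCRFS1 at -0.32 and CYC1 at -0.33. In complex IV 0 of 11 passed edgeR's test, with COX6B1 at -0.23 (SE 0.0797, adjusted p = 0.051) and COX7C at -0.14 (SE 0.0563, adjusted p = 0.0987), while 2 were lower at an unadjusted p under 0.05, 0 by DESeq2 and 1 by limma-voom. In complex V 9 of 16 fell, with ATP5MC1 at -0.57 and ATP5F1A at -0.34, and in complex II 2 of 4 fell, SDHC at -0.23 and SDHB at -0.21.

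Under total counts the step between the doses had 2 higher and 0 lower in transcription and replication, 1 and 2 in RNA processing, 1 and 1 among modifiers and 3 and 2 among synthetases. Complex I then had 0 higher and 3 lower, complex III 1 and 2, complex V 0 and 9, and complexes II and IV 0 and 0. Over all 15589 genes tested, this scaling gave 2205 higher and 1347 lower between the doses.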

How the data were processed

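Per the submitters' processing notes, the authors aligned reads to hg38 with HISAT2 2.2.1 and counted them with HTSeq 2.0.2; the deposited values are whole-number counts per gene, 1 table per library. The sources used here do not give read length, strand, RNA selection or counting options. The 5 summary rows, 17.8% to 18.93% of each table, were kept out of library sizes and tests. Symbols were matched by gene identifier, and the mitochondrial genes were placed with GENCODE 29.

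Low rows were removed with filterByExpr (minimum count 10, minimum total 15), which left 15589 genes and 16 of the 37 mitochondrial ones. Counts were scaled by TMM and tested with edgeR 4.0.16 in R 4.3.3 (quasi-likelihood test, 1 fit over all 3 groups, residual df 3, Benjamini-Hochberg adjustment over all genes at 0.05). The steps were tested on simulated data. Alternatives were RLE and total-count scaling, TMM without the mitochondrial genes, 2 other filters, DESeq2 1.42.0, limma-voom 3.58.1, fits of 2 groups, a replicate block, each library left out and a threshold of 0.01. Replicates differed by more than sampling noise (chi-square over degrees of freedom 2.24 to 2.721). The labels link same-numbered libraries by their number only. Of the mitochondrial genes, MT-RNR2, MT-ND2, MT-ND5, MT-ND6 and MT-TP were above in library 2 of each group. So were RN7SL1, SNORD3A and the share of gene counts held by the 37 genes. A shared preparation was not tested.

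The members and all lists were chosen with earlier results of these data known. By rule, the text names all mRNAs and rRNAs, tRNA genes that passed the filter, the 7 chromosome 1 copies and, of each nuclear list, the 2 genes with the smallest p in a comparison.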

Additional observations from a re-analysis of the deposited data

Results flagged for a closer look

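Reads outside any annotated gene, which no comparison above uses, made up 7.98% and 7.73% of all reads in the tables of the 150 µg/ml libraries, against 6.32% and 6.72% in the DMSO libraries, and the groups did not overlap. At 75 µg/ml they were 6.44% and 7.23%. These reads carry no position in the deposited tables, so how many lie on the mitochondrial chromosome was not tested.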

How the results depend on the processing

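A count was taken as the same when it lay near the main count, without being equal to it, and a share when its difference kept its sign. Of the alternative values of counts and shares, 173 stayed the same and 1 moved (genes called higher at 75 µg/ml without that dose's library 2). Of those of single genes, 757 stayed the same, 5 lost the call (those of MT-ND1, MT-ND2 and MT-TP given above) and 3 reversed, none of them called: MT-TP at 150 µg/ml was 0.016 under total counts, and MT-ATP8 at 150 µg/ml was 0.14 under total counts and 0.24 without the AF-EAE 150 µg/ml library 2 (log2), within -0.40 to 0.24 over the libraries left out. The cause was not tested. With 5 CPM in 2 libraries MT-ATP8 was not tested. With the replicate number as a block, 15, 14 and 15 of the 16 genes were called at 75 µg/ml, 150 µg/ml and between the doses, as without it; deviations of same-numbered libraries correlated at 0.059, 0.0412 and 0.00373.

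Over all genes, total-count scaling gave 4494 higher and 1819 lower at 75 µg/ml against 2989 and 3026, and 6021 higher and 2544 lower at 150 µg/ml against 4022 and 4000. Between the doses 3433 genes were called, and 1507 without the 150 µg/ml library 1, 1990 without the 75 µg/ml library 1 and 1883 at a threshold of 0.01. The few counts of MT-ATP8 and MT-TF limit the precision of their values.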
